A study of Homo sapiens with 18 samples.

Results

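The collagen hydroxylases and lysyl oxidases examined here are 10 genes, P4HA1, P4HA2, P4HA3, PLOD1, PLOD2, PLOD3, LOX, LOXL1, LOXL2 and LOXL4, taken by their symbols from the 28277 genes listed in the count table. Their RNA-seq counts come from OVCAR3-KRAB cells, derived from OVCAR3, an established line of ovarian cancer. All groups carry dCas9-KRAB, a nuclease-dead Cas9 fused to a repressor domain, and were grown in DMEM with fetal bovine serum. The control line received the guide sgCtl and the XIST knockdown (KD) lines the guide sgXIST7 or sgXIST9, both directed at XIST, the long noncoding RNA of X inactivation. Each line was kept in normoxia without treatment or in a chamber with 1% oxygen for 24 h (hypoxia), with 3 libraries in each of the 6 groups. The lines are monoclonal, those with KD having been selected for loss of XIST, so that the guide and the clone cannot be told apart. The study calls its 3 replicates biological, and the labels do not say whether they are separate cultures. The p-values measure the spread between these libraries only.

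Collagen is modified in the endoplasmic reticulum before it is secreted. Prolyl 4-hydroxylases, whose catalytic alpha subunits are encoded by P4HA1, P4HA2 and P4HA3, hydroxylate prolines and thereby stabilize the triple helix. Lysyl hydroxylases (PLOD1, PLOD2, PLOD3) hydroxylate lysines of the helix and of the telopeptides, and the secreted copper enzymes LOX and LOXL1 to LOXL4 oxidize lysines to aldehydes, from which the cross-links of collagen and elastin form. The hydroxylases use oxygen as a substrate, and several of these genes are well-known targets of the hypoxia-inducible factors (HIF).

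Total counts per library ranged from 11794375 to 24906936, with a median of 17629433.5. XIST, the targeted gene, had 1589 to 11209 counts in the sgCtl libraries, 0 to 5 in sgXIST7 and 357 to 1009 in sgXIST9. Of 8 genes set as markers of ovarian carcinoma epithelium, EPCAM and KRT18 were abundant, with 140 CPM or more in each group mean, whereas KRT7 had at most 3 counts, CDH1 at most 2 and MUC16 at most 4 in any library. These 3 genes, known from epithelial ovarian carcinoma, were thus near 0 in cells that the labels call OVCAR3, and the identity of the line was not tested. The 4 leukocyte markers summed to 11.1 to 55.9 CPM, nearly all of it CD68, a lysosomal gene, with means of 26.7, 29.2 and 46.3 CPM in normoxic and 16.1, 20.1 and 18.2 CPM in hypoxic sgCtl, sgXIST7 and sgXIST9. The others, PTPRC, CD3E and CD14, had at most 1, 1 and 6 counts. The 3 endothelial markers summed to at most 0.684 CPM. The fibroblast list is described beside the comparison of the clones. In RNA from a whole culture, a lower level per cell and fewer expressing cells cannot be told apart. Hypoxia replicate 3 stood somewhat apart from the other hypoxia libraries in sgCtl and sgXIST9, and less clearly so in sgXIST7. In sgCtl, its log expression correlated with replicates 1 and 2 at r = 0.964 and 0.9532, against 0.9866 between those 2. The values were 0.98 and 0.967 against 0.9876 in sgXIST9, and 0.9747 and 0.9836 against 0.9866 in sgXIST7.

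Levels are given as CPM, the counts scaled by the TMM-normalized library size. A limit of 3 counts, or 0.13 to 0.266 CPM depending on the library, was taken as the limit of detection, which covers counting error only. Differences are log2 fold changes ± standard error from the quasi-likelihood test of edgeR in 1 fit of the 18 libraries, with p-values adjusted (Benjamini-Hochberg) over the 14938 genes tested. A gene was called where the adjusted p was under 0.01 and the log2 fold change exceeded 1 in either direction. For single values, the lowest p of a two-sided exact permutation test with 3 libraries a group is 0.1. Of the 10 genes, 9 were tested, and 6 of them (P4HA1, P4HA2, PLOD1, PLOD2, PLOD3 and LOXL2) had at least 10 counts in every library. LOX, LOXL1 and P4HA3 passed the filter only through the libraries in which they were high, so counts over the tested members are descriptions. LOXL4 was not tested.

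Because several of these genes rose together in hypoxia, their promoters were searched for ACGTG and GCGTG, the letters of the core HIF response element, on both strands (CACGT and CACGC on the other). The RefSeq table (GRCh38.p14) gives 250 bases before and 50 after the start of transcription. It had entries for 8 of the 10 genes, not for P4HA3 and LOXL2. The promoters of 4 genes that rose in all 3 clones are shown from 5′ to 3′ on the strand of the gene, with the matches in capitals. They are P4HA1 at chr10:73096817-73097116, P4HA2 at chr5:132227042-132227341, PLOD2 at chr3:146161135-146161434 and, of the 3 starts listed for LOX, the one at the gene's outer end, chr5:122078210-122078509, all on the minus strand.
P4HA1: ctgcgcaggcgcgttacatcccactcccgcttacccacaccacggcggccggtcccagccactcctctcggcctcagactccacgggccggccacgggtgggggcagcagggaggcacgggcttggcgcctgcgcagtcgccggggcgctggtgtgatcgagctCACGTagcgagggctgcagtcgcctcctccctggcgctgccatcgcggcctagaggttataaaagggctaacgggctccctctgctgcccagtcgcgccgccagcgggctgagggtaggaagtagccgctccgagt
P4HA2: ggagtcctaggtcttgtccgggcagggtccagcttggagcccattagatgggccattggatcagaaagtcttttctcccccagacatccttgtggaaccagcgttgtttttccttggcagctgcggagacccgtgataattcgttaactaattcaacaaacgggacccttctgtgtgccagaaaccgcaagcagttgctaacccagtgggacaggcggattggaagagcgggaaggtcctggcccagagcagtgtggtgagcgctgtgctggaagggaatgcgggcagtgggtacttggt
PLOD2: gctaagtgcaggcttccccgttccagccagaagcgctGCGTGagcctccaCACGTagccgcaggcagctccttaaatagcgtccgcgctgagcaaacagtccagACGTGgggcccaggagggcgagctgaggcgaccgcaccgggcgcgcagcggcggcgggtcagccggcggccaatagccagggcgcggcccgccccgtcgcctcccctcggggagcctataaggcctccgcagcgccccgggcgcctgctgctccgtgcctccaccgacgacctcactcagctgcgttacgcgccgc
LOX: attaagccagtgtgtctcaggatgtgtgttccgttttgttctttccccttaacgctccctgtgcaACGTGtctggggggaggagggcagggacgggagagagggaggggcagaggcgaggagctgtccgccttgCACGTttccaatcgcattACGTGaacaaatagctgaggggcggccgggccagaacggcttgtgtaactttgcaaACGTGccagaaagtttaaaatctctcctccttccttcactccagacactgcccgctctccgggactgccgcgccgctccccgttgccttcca
The LOX window held 4 matches, PLOD2 held 3, P4HA1 held 1, and P4HA2 held 0. The GENCODE annotation places the outer ends of P4HA2 and PLOD2 beyond these windows, at 132295315 and 146163725, and those stretches were not searched. PLOD1 held 2 copies of GCGTG, and PLOD3, LOXL1 and LOXL4 held 0 matches. Of the 35116 promoters in the table, 21.4% held ACGTG, 36.5% GCGTG and 48.4% either, against 4 of the 8 genes here, which is near the share of all promoters. The share is over promoters and not over genes, which can have several starts. A match is a description of these letters and not of a bound site.

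The first comparison was of hypoxia with normoxia within each clone. Hypoxia raised P4HA1, P4HA2, PLOD1, PLOD2 and LOXL2 in all 3 clones and PLOD3 in sgCtl and sgXIST7. LOX was also called higher in all 3 clones. It passed the filter only through libraries in which it was high, so its calls are descriptions. With LOX, 7 of the 10 genes were called higher in sgCtl, 7 in sgXIST7 and 6 in sgXIST9, and 0 were called lower. Among all genes tested, 11.3% were called higher and 8.49% lower in sgCtl, 15.1% and 12.2% in sgXIST7, and 14.7% and 8.58% in sgXIST9.

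P4HA1 (chromosome 10, 73007222 to 73096974, minus strand, hg38, 17 exon blocks), the major prolyl 4-hydroxylase subunit of most cells, had 52.3, 39.8 and 45.1 CPM in the normoxic sgCtl libraries and 695, 549.9 and 809 CPM in hypoxia. In sgXIST7 it had 60.2, 61.0 and 53.0 CPM before and 705, 917 and 949 CPM after hypoxia, and in sgXIST9 37.6, 32.2 and 38.2 CPM before and 685, 573 and 965 CPM after. Every hypoxic library was far above every normoxic one in each clone. The log2 fold changes were 3.90 ± 0.20 in sgCtl (adjusted p = 5.6e-10), 3.88 ± 0.20 in sgXIST7 (adjusted p = 2.7e-10) and 4.36 ± 0.21 in sgXIST9 (adjusted p = 1.4e-10). These are 15-, 14.8- and 20.6-fold rises.

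P4HA2 (chromosome 5, 132190147 to 132227258, minus strand), the second alpha subunit, had 47.2, 34.2 and 47.0 CPM in normoxic sgCtl and 443, 368 and 655 CPM in hypoxia. In sgXIST7 the values were 72.9, 81.2 and 78.3 CPM before and 627, 851 and 1028 CPM after hypoxia, and in sgXIST9 51.9, 55.0 and 54.8 CPM before and 433, 359.5 and 646 CPM after. Groups did not overlap in any clone. The log2 fold changes were 3.51 ± 0.25 (adjusted p = 1.2e-08), 3.43 ± 0.25 (adjusted p = 6.7e-09) and 3.15 ± 0.24 (adjusted p = 2.1e-08) in sgCtl, sgXIST7 and sgXIST9. Exons of the antisense gene P4HA2-AS1 cover 10.5% of the P4HA2 length, and it had 0 to 6 counts per library.

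P4HA3 (chromosome 11, 74266657 to 74311640, minus strand), the third alpha subunit, was near the limit of detection, with 0 to 18 counts per library. In sgCtl it had 3, 4 and 2 counts in normoxia and 18, 18 and 3 in hypoxia. The groups overlapped through hypoxia replicate 3, and the difference was not called (log2 1.94 ± 0.69, adjusted p = 0.026), but it was without that library (2.29, adjusted p = 0.0075). In sgXIST7 it had 8, 9 and 6 counts in normoxia and 9, 3 and 0 in hypoxia.

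PLOD1 (chromosome 1, 11934717 to 11975537, plus strand, 20 exon blocks), which hydroxylates lysines of the triple helix, had 110, 116 and 107 CPM in normoxic sgCtl and 431, 426 and 545 CPM in hypoxia. In sgXIST7 the normoxic libraries had 193, 313 and 197 CPM and the hypoxic ones 947, 1137 and 1416 CPM, and in sgXIST9 these were 138.5, 144 and 139.7 CPM and 620.4, 657 and 926 CPM. Again no hypoxic library overlapped a normoxic one. The rise was 2.08 ± 0.20 (adjusted p = 3.2e-07), 2.32 ± 0.20 (adjusted p = 4.7e-08) and 2.38 ± 0.20 (adjusted p = 4.9e-08) on the log2 scale in sgCtl, sgXIST7 and sgXIST9.

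PLOD2 (chromosome 3, 146069441 to 146161495, minus strand), which hydroxylates the lysines of the telopeptides, had 58.2, 53.3 and 46.2 CPM in normoxic sgCtl and 744, 623 and 1089 CPM in hypoxia. The sgXIST7 libraries had 95.4, 105.9 and 93.4 CPM in normoxia and 1397, 1754 and 2244 CPM in hypoxia, those of sgXIST9 77.8, 72.6 and 71.3 CPM and 1097, 925 and 1358 CPM. The groups were far apart in every clone. The log2 fold changes were 3.96 ± 0.22 (adjusted p = 9.4e-10), 4.19 ± 0.22 (adjusted p = 2.7e-10) and 3.93 ± 0.22 (adjusted p = 7.2e-10).

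PLOD3 (chromosome 7, 101205984 to 101217581, minus strand), which also carries glycosyltransferase activity towards hydroxylysine, changed least of the lysyl hydroxylases. Its mean was 29.4 ± 1.22 CPM (SD, n = 3) in normoxic and 60.4 ± 2.30 CPM in hypoxic sgCtl, 53.3 ± 5.32 and 108 ± 18 CPM in sgXIST7, and 51.4 ± 6.07 and 67.8 ± 10.5 CPM in sgXIST9. The log2 fold changes of 1.04 ± 0.14 in sgCtl (adjusted p = 1.1e-05) and 1.02 ± 0.14 in sgXIST7 (adjusted p = 6e-06) were just past the fold limit. The latter fell below it without normoxia replicate 1 (0.96) or without hypoxia replicate 2 (0.996) or 3 (0.93) of sgXIST7. In sgXIST9 the difference was 0.40 ± 0.14 (adjusted p = 0.019), not called, although the 3 hypoxic libraries were all above the normoxic ones.

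LOX (chromosome 5, 122063195 to 122078259, minus strand), the lysyl oxidase, was almost absent from normoxic cells, with 3, 1 and 2 counts in sgCtl, 4, 4 and 13 in sgXIST7, and 1, 2 and 1 in sgXIST9. In hypoxia it had 24, 17 and 4 counts in sgCtl, 123, 205 and 137 in sgXIST7, and 61, 43 and 46 in sgXIST9. Hypoxic and normoxic libraries did not overlap in CPM in any clone. From the summed counts the hypoxic level was 7.15 times the normoxic one in sgCtl (95% exact interval 3.04 to 20.5, counting error only), 26.0 times in sgXIST7 (16.8 to 42.4) and 36.6 times in sgXIST9 (14 to 136). The fitted log2 fold changes were 2.74 ± 0.62 (adjusted p = 0.0015), 4.75 ± 0.46 (adjusted p = 1.8e-07) and 5.07 ± 0.60 (adjusted p = 2.1e-06). Without hypoxia replicate 1 of sgCtl, the call in sgCtl was lost (2.22, adjusted p = 0.011).

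LOXL2 (23296897 to 23404120 on chromosome 8, minus strand), which cross-links the network of collagen IV, was the only oxidase of the 10 genes with at least 10 counts in every library. In sgCtl it had 23.2, 19.9 and 17.9 CPM in normoxia and 61.8, 58.1 and 96.9 CPM in hypoxia. The sgXIST7 libraries had 57.8, 52.8 and 43.8 CPM and 94.1, 115 and 171.5 CPM, and those of sgXIST9 24.5, 18.7 and 17.2 CPM and 59.2, 58.2 and 70.4 CPM. Within each clone every hypoxic library was the higher. The rise was 1.83 ± 0.23 (adjusted p = 5.8e-06), 1.30 ± 0.22 (adjusted p = 8e-05) and 1.63 ± 0.23 (adjusted p = 1.2e-05) on the log2 scale. LOXL4 (chromosome 10, 98247691 to 98268194) had 0 counts in 15 of the libraries and 1, 2 and 1 counts in the others.

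LOXL1 (chromosome 15, 73926462 to 73952136, plus strand), known for its role in elastic fibres, was not called higher in hypoxia in any clone. In sgXIST7 it had 9.34, 10.7 and 11.6 CPM in normoxia and 4.73, 4.85 and 8.46 CPM in hypoxia, so that all hypoxic libraries were lower. The difference was not called (log2 -0.82 ± 0.34, adjusted p = 0.047), but it was when the 3 hypoxia libraries numbered 3 were left out (-1.12, adjusted p = 0.0039). In sgCtl and sgXIST9 it had 0 to 6 counts per library.

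**Figure D1:**
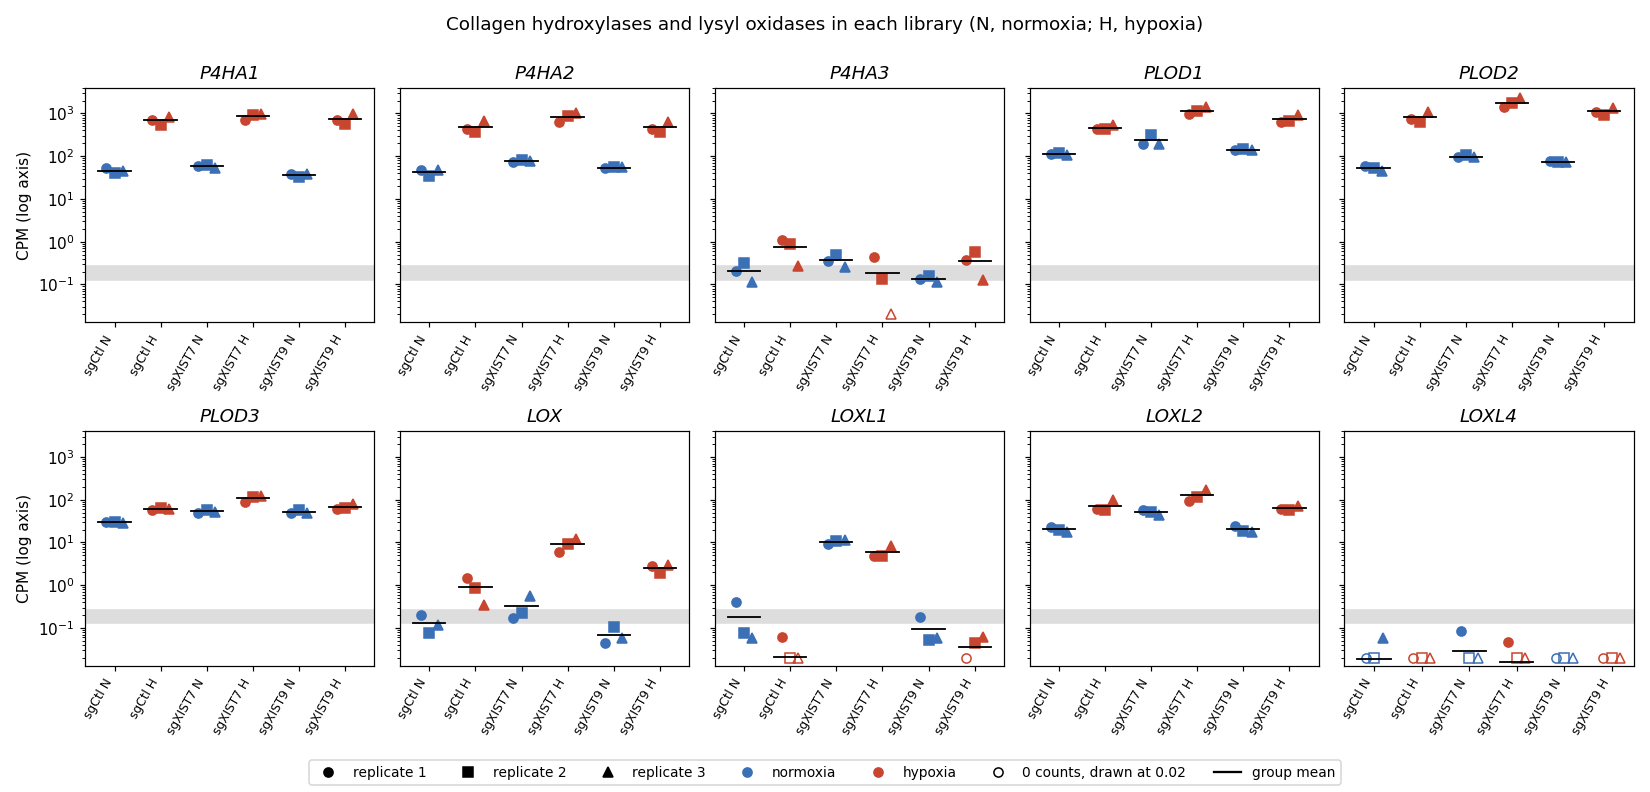
CPM (log axis) of the 10 genes in each of the 18 libraries, by clone and oxygen, with symbols for replicate number, bars for group means and the grey band for the limit of detection (0.13 to 0.266 CPM). P4HA1, P4HA2 and PLOD2 rise steeply and PLOD1 and LOXL2 less so in each clone, LOX lies above the band in hypoxia, LOXL1 lies well above it only in sgXIST7, and LOXL4 lies below it throughout.

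Libraries of hypoxia replicate 3 were high for most of these genes. Of the 6 members with at least 10 counts in each hypoxic sgCtl library, 5 were highest in replicate 3, as were 8 of 8 in sgXIST7 and 7 of 7 in sgXIST9. Without these 3 libraries the counts of genes called higher were 8, 6 and 6 in sgCtl, sgXIST7 and sgXIST9, P4HA3 being added in sgCtl and PLOD3 lost in sgXIST7. Among all genes, those called in either direction rose from 2949, 4077 and 3474 to 3576, 4152 and 3750. What sets these libraries apart was not tested.

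Differences between clones in the response to hypoxia were tested as interactions. By edgeR, 0 of the 9 genes tested were called for sgXIST7 against sgCtl and 0 for sgXIST9 against sgCtl (2 and 2 at an unadjusted p under 0.05, and 0 and 0 called by DESeq2), against 1.52% and 1.01% of all genes. The responses of P4HA1 and P4HA2 differed from those in sgCtl by -0.02 ± 0.26 and -0.08 ± 0.32 in sgXIST7, and by 0.46 ± 0.26 and -0.36 ± 0.32 in sgXIST9. Those of PLOD1 and PLOD2 differed by 0.24 ± 0.27 and 0.23 ± 0.27 in sgXIST7 and by 0.31 ± 0.27 and -0.03 ± 0.27 in sgXIST9. For LOX the difference was 2.01 ± 0.92 in sgXIST7 (adjusted p = 0.17) and 2.33 ± 1.04 in sgXIST9 (adjusted p = 0.20), not called. That of P4HA3 in sgXIST7, on 9 to 39 counts a group, was -2.69 ± 0.98 (adjusted p = 0.091). The response of PLOD3 in sgXIST9 differed by -0.64 ± 0.19 (adjusted p = 0.062). LOX and P4HA3 in sgXIST7 and LOX and PLOD3 in sgXIST9 are the genes at an unadjusted p under 0.05.

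**Figure D2:**
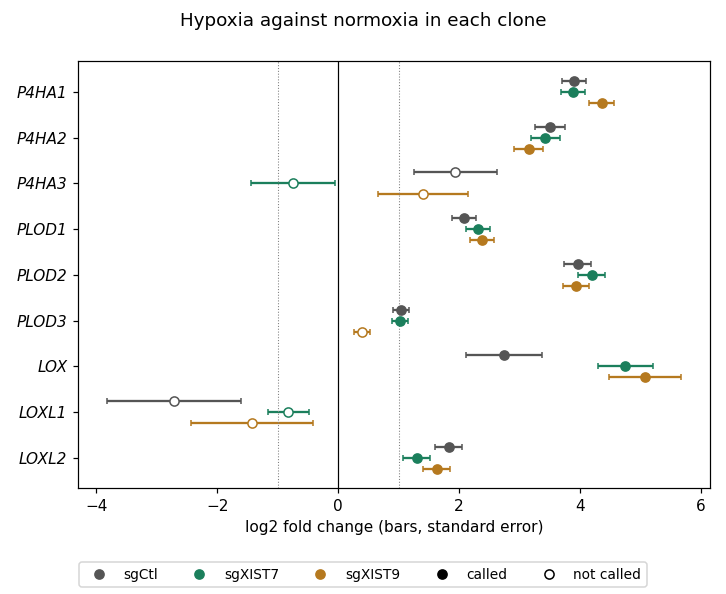
Log2 fold change of hypoxia against normoxia for the 9 genes tested, by clone, with the standard error as bars, filled points for genes called and dotted lines at the fold limit of 1. The points of the 3 clones lie close for P4HA1, P4HA2, PLOD1, PLOD2 and LOXL2. They lie apart for LOX, P4HA3 and LOXL1, which have few counts and wide bars in at least 1 clone. PLOD3, with narrow bars, is lower in sgXIST9 (0.40) than in sgCtl (1.04) and sgXIST7 (1.02).

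To compare levels between genes, CPM were divided by gene length. In normoxic sgCtl the order of CPM per kilobase was PLOD1 (35.6), P4HA1 (15.2), PLOD2 (12.9), PLOD3 (10.4), P4HA2 (8.27) and LOXL2 (5.46), with P4HA3, LOXL1, LOX and LOXL4 under 0.1. In hypoxic sgCtl it was P4HA1 (227), PLOD2 (202), PLOD1 (150), P4HA2 (94.4), PLOD3 (21.4) and LOXL2 (19.4). The libraries of P4HA1 and PLOD2 overlapped in both conditions, as did those of PLOD2 and PLOD1 and of PLOD3 and LOXL2 in hypoxia. PLOD1 led in normoxia in all 3 clones, and its libraries did not overlap those of the next gene.

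Within each library, where no scaling factor enters, PLOD2 overtook PLOD1 in hypoxia. The ratio of PLOD2 to PLOD1 per kilobase was 0.406, 0.352 and 0.332 in normoxic sgCtl and 1.33, 1.12 and 1.53 in hypoxia. It lay between 0.26 and 0.431 in the 6 normoxic KD libraries and between 1.08 and 1.36 in the 6 hypoxic ones. In each clone the groups were separate (exact permutation p = 0.1, the lowest possible). PLOD2 thus made up 21.9% ± 1.76 (SD, n = 3) of the summed lysyl hydroxylase level in normoxic sgCtl and 53.5% ± 4.35 in hypoxia.

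The balance of the transcripts for prolyl 4-hydroxylase subunits shifted too. P4HB, which encodes the beta subunit (protein disulfide isomerase), rose by 1.35 ± 0.20 on the log2 scale in sgCtl (adjusted p = 3.1e-05) and 1.41 ± 0.20 in sgXIST7 (adjusted p = 1.3e-05), and was just under the fold limit in sgXIST9 (0.96 ± 0.20, adjusted p = 0.00056). Its ratio to the summed P4HA genes per kilobase was 4.40, 5.73 and 4.52 in normoxic sgCtl and 0.791, 0.896 and 0.986 in hypoxia. The mean ratio was 4.41 in normoxia and 0.896 in hypoxia in sgXIST7, and 5.67 and 0.739 in sgXIST9, again without overlap (exact permutation p = 0.1 in each clone). P4HA1 gained on P4HA2 in hypoxia, with a ratio of 1.85 ± 0.18 in normoxic and 2.47 ± 0.30 in hypoxic sgCtl (SD, n = 3), 1.29 ± 0.13 and 1.79 ± 0.18 in sgXIST7 and 1.15 ± 0.13 and 2.68 ± 0.09 in sgXIST9, without overlap in each clone.

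**Figure D3:**
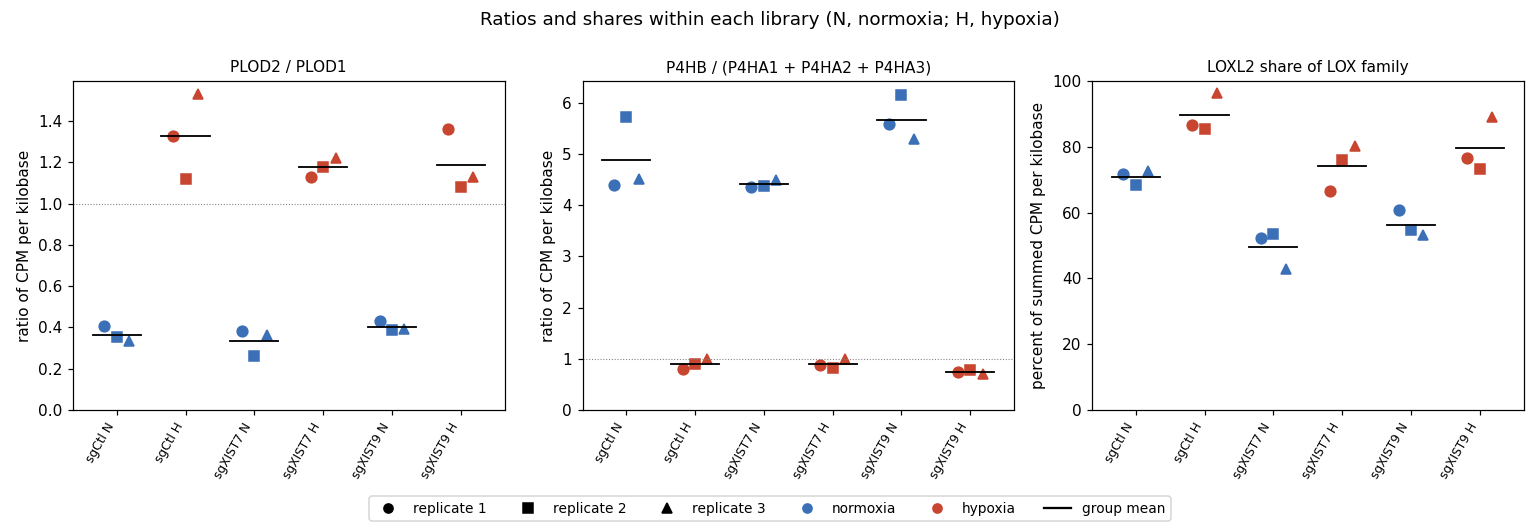
PLOD2 relative to PLOD1, P4HB relative to the summed P4HA genes and the share of LOXL2 in the summed LOX, LOXL1, LOXL2, LOXL3 and LOXL4 level, all from CPM per kilobase within each library, with bars for group means. In each clone the hypoxic libraries lie above the normoxic ones for PLOD2 to PLOD1 and for the LOXL2 share, and below them for P4HB, where the ratio drops to 1 or less.

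The second comparison was of each KD clone with sgCtl. The comparisons of sgXIST7 and of sgXIST9 use the same 3 control libraries. In normoxia, PLOD1, LOXL1 and LOXL2 were called higher in sgXIST7, 3 of the 10 genes, against 4.67% of all genes called higher and 3.09% called lower. In sgXIST9, 0 of the 10 were called by edgeR (2 at an unadjusted p under 0.05, PLOD2 and PLOD3, and 0 by DESeq2), against 3.93% of all genes called higher and 3.77% lower. In hypoxia, PLOD1, PLOD2, LOX and LOXL1 were called higher in sgXIST7, 4 of the 10, against 7.83% higher and 6.19% lower overall. In sgXIST9, 0 were called by edgeR (3 at an unadjusted p under 0.05, PLOD1, PLOD2 and LOX, and 0 by DESeq2), against 6.14% higher and 3.39% lower.

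LOXL1 separated the clones most. It had 216, 192 and 267 counts in the normoxic and 99, 107 and 98 counts in the hypoxic sgXIST7 libraries, against 6, 1 and 1 in normoxic sgCtl, 1, 0 and 0 in hypoxic sgCtl, 4, 1 and 1 in normoxic sgXIST9 and 0, 1 and 1 in hypoxic sgXIST9. By summed counts, sgXIST7 was 59.6 times sgCtl in normoxia (95% exact interval 30.1 to 139) and 102 times sgXIST9 (46.8 to 280). In hypoxia it was 264 times sgCtl (47.1 to 10500) and 167 times sgXIST9 (45.7 to 1380). The adjusted p of edgeR was 2.1e-07 against sgCtl in both conditions, and 1.4e-07 and 3.3e-07 against sgXIST9 in normoxia and hypoxia. The antisense gene LOXL1-AS1, which overlaps 9.89% of the LOXL1 length, had 21 to 26 counts in normoxic and 4 to 29 in hypoxic sgXIST7 and at most 1 count in the other groups. The strand setting of the counting is not given in the sources used here, so that reads on the shared stretch cannot be told apart. The rest of LOXL1 is not shared with this gene.

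LOX in hypoxia was 1.5, 0.844 and 0.354 CPM in sgCtl, 5.88, 9.29 and 11.8 CPM in sgXIST7 and 2.78, 1.95 and 2.90 CPM in sgXIST9. The 3 clones did not overlap. The difference from sgCtl was 3.26 ± 0.42 in sgXIST7 (adjusted p = 1.3e-05), and 1.45 ± 0.42 in sgXIST9 (adjusted p = 0.015), which was called without hypoxia replicate 1 of sgCtl (1.97, adjusted p = 0.0059). In normoxia LOX was at 13 counts or fewer in every library.

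PLOD1 was 1.08 ± 0.19 higher in sgXIST7 than in sgCtl in normoxia (log2, adjusted p = 5e-04) and 1.32 ± 0.19 higher in hypoxia (adjusted p = 4.9e-05), without overlap of the libraries. The normoxic call rested on replicate 2 of sgXIST7 (313 CPM against 193 and 197 in the others), since the difference was 0.81 without it. In sgXIST9 it was 0.65 ± 0.19 higher in hypoxia (adjusted p = 0.016). PLOD2 was 0.90 ± 0.20 higher in sgXIST7 in normoxia (adjusted p = 0.0027, below the fold limit) and 1.14 ± 0.20 higher in hypoxia (adjusted p = 0.00022), the latter falling to 0.97 without replicate 2 of hypoxic sgCtl and to 0.94 without replicate 3 of hypoxic sgXIST7. In sgXIST9 its differences were 0.49 ± 0.20 in normoxia (adjusted p = 0.086) and 0.46 ± 0.19 in hypoxia (adjusted p = 0.082).

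PLOD3 was higher in both KD clones in normoxia by less than the fold limit, with 29.5, 30.6 and 28.2 CPM in sgCtl, 48.6, 59.1 and 52.3 CPM in sgXIST7 and 47.7, 58.4 and 48.2 CPM in sgXIST9. The differences were 0.86 ± 0.14 (adjusted p = 0.00018) and 0.81 ± 0.14 (adjusted p = 0.00032). In hypoxia it was 0.84 ± 0.14 higher in sgXIST7 (adjusted p = 0.00012), while the libraries of sgXIST9 and sgCtl overlapped. LOXL2 was 1.34 ± 0.23 higher in sgXIST7 in normoxia (adjusted p = 0.00029) and 0.81 ± 0.22 higher in hypoxia (adjusted p = 0.0067, with overlapping libraries). Its means in sgXIST9 and sgCtl were 20.1 ± 3.85 and 20.3 ± 2.71 CPM in normoxia (SD, n = 3).

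Of the 3 prolyl 4-hydroxylase genes, 0 were called in either KD clone, which is near the share of all genes. That share was 3.09% to 4.67% in a direction in normoxia and 3.39% to 7.83% in hypoxia. P4HA1 was 0.34 ± 0.18 higher in sgXIST7 in normoxia (adjusted p = 0.21) and 0.32 ± 0.18 higher in hypoxia (adjusted p = 0.15). In sgXIST9 it was lower in normoxia, with 36.0 ± 3.28 against 45.7 ± 6.28 CPM (SD, n = 3, log2 -0.34 ± 0.18, adjusted p = 0.21), and the libraries did not overlap. Its hypoxic libraries overlapped those of sgCtl. P4HA2 was 0.85 ± 0.23 higher in normoxia (adjusted p = 0.012) and 0.77 ± 0.22 higher in hypoxia (adjusted p = 0.011) in sgXIST7. Its means in sgXIST9 were 53.9 ± 1.77 CPM in normoxia and 480 ± 149 in hypoxia, against 42.8 ± 7.47 and 488 ± 149 in sgCtl. P4HA3 in hypoxic sgXIST7 was -1.86 ± 0.66 against sgCtl (adjusted p = 0.031) on 12 counts in all against 39. Without hypoxia replicate 3 of sgCtl, P4HA2 (1.04, adjusted p = 0.001), LOXL2 (1.08, adjusted p = 0.00051) and P4HA3 (-2.20, adjusted p = 0.0076) were called as well, 7 genes in all. Among all genes, those called in either direction rose from 2093 to 3015 in the same fit. P4HA3 was also called without hypoxia replicate 1 of sgXIST7 (-3.10, adjusted p = 0.0071), which leaves libraries of 3 and 0 counts.

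**Figure D4:**
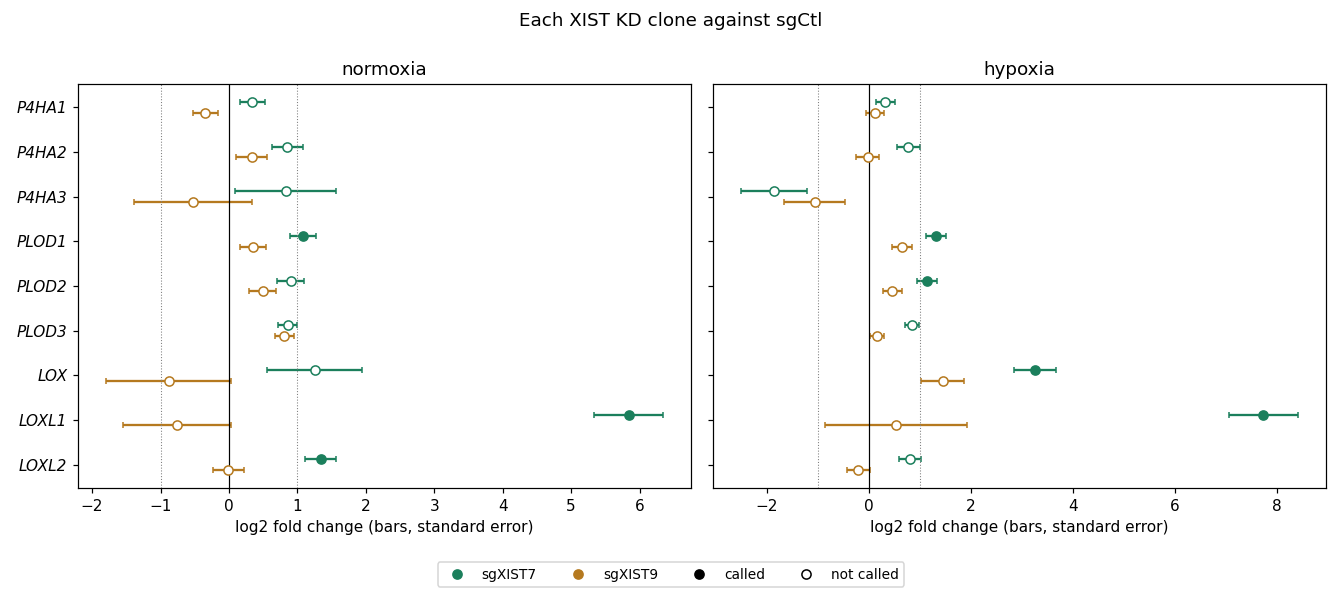
Log2 fold change of sgXIST7 and of sgXIST9 against sgCtl for the 9 genes tested, in normoxia (left) and hypoxia (right), with the standard error as bars and filled points for genes called; both clones are set against the same sgCtl libraries. The filled points are all of sgXIST7, with LOXL1 the farthest to the right in both panels and LOX next to it in hypoxia.

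The KD clones were also compared with each other, in samples that share no library. In normoxia, LOXL1 and LOXL2 (1.35 ± 0.23, adjusted p = 0.00059) were called higher in sgXIST7 than in sgXIST9, 2 of the 10 genes, against 2.09% of all genes called higher and 1.31% lower. P4HA1 (0.69 ± 0.18, adjusted p = 0.024) and PLOD1 (0.73 ± 0.19, adjusted p = 0.021) were not called. In hypoxia, LOX (1.82 ± 0.38, adjusted p = 0.003), LOXL1 and LOXL2 (1.02 ± 0.22, adjusted p = 0.004) were called higher, 3 of the 10, against 2.06% higher and 2.40% lower. The calls of LOX and LOXL2 were lost without sgXIST7 hypoxia replicate 3 or without sgXIST9 hypoxia replicate 1 or 2, which left 1, and that of LOX also without sgXIST7 hypoxia replicate 2. LOXL2 was at 0.96 with upper-quartile scaling and at 0.84 without the 3 hypoxia libraries numbered 3. PLOD3 was 0.68 ± 0.13 higher (adjusted p = 0.0023), P4HA2 0.80 ± 0.23 (adjusted p = 0.020), PLOD2 0.67 ± 0.19 and PLOD1 0.67 ± 0.19 (adjusted p = 0.022 for both).

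The summed level of the fibroblast markers also differed between the clones, but the single genes did not move together. The summed CPM of 8 such genes was 14.7 to 35.5 in the sgCtl libraries, 113 to 318 in sgXIST7 and 59.1 to 87.6 in sgXIST9. Most of it in the KD clones was COL1A2 (96.7 CPM in normoxic sgXIST7, 0.275 in sgCtl), itself a substrate of these enzymes, and THY1. COL1A1 was higher too, with means of 2.06 to 5.21 CPM in the KD groups against 0.163 and 0.564 in sgCtl. THY1 had 25.6 CPM in hypoxic sgCtl and 18 in hypoxic sgXIST7. The defining fibroblast genes DCN and LUM had at most 1 and 3 counts in any sgXIST7 library, and PDGFRB at most 2. DCN was higher in sgCtl, with 0.406 CPM in normoxia and 1.56 in hypoxia, against group means of at most 0.0993 in the KD clones. PDGFRB and FAP had at most 8 counts and PDGFRA at most 20 in any library. The part of this list in the differences between clones was not tested.

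The other genes of collagen modification were taken from lists of partners, trimming enzymes, export factors and substrates. Some, such as P3H2, CREB3L1, COL1A2, COL4A1 and COL4A2, had few counts in some groups. These passed the filter only through libraries in which they were high, so their calls are descriptions. Of 13 partners, 2 rose and 2 fell in hypoxia in sgCtl, 3 rose and 1 fell in sgXIST7, and 2 rose and 1 fell in sgXIST9 (shares of all genes as given for hypoxia above), with a median log2 fold change of -0.07, -0.11 and -0.11 against 0.02, 0.01 and 0.09 for all genes. P3H2, a prolyl 3-hydroxylase, rose in each clone, with means of 0.329 CPM in normoxic and 2.60 CPM in hypoxic sgCtl (log2 2.88 ± 0.62, adjusted p = 0.001). P3H3 fell in each clone (-1.51 ± 0.22 in sgCtl, adjusted p = 2.7e-05), and CRTAP, a partner of prolyl 3-hydroxylation, fell in sgCtl (-1.16 ± 0.15, adjusted p = 1e-05). COLGALT2, which adds galactose to the hydroxylysines made by the lysyl hydroxylases, had 12.7 ± 0.77 and 9.54 ± 2.27 CPM in normoxic and hypoxic sgCtl (SD, n = 3), but 3.36 ± 0.895 and 10.5 ± 1.36 in sgXIST7 and 3.72 ± 0.195 and 10.7 ± 1.28 in sgXIST9. Its response differed from sgCtl by 2.07 ± 0.28 in sgXIST7 (adjusted p = 0.00054) and by 1.95 ± 0.28 in sgXIST9 (adjusted p = 0.0012). Against sgCtl, 1 partner was higher and 1 lower in normoxic sgXIST7 (4.67% and 3.09% of all genes). In normoxic sgXIST9, 0 were higher and 1 lower (3.93% and 3.77%). In hypoxia the counts were 1 and 0 in sgXIST7 (7.83% and 6.19%) and 0 and 0 in sgXIST9 (6.14% and 3.39%). For 13 genes these counts are near the shares of all genes.

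LOXL3, the remaining oxidase of the family, was higher in sgXIST7 than in sgCtl in normoxia (35.1 against 7.88 CPM, log2 2.16 ± 0.36, adjusted p = 0.00023) and in hypoxia (1.89 ± 0.36, adjusted p = 0.00049), and was not called in hypoxia against normoxia. Per kilobase LOXL2 made up 70.9% ± 2.32 of the summed LOX family in normoxic and 89.6% ± 5.98 in hypoxic sgCtl, and LOXL3 27.8% ± 2.90 and 9.50% ± 5.47 (SD, n = 3). LOX, for all its fold change, stayed at 0.17, 1.70 and 0.48 CPM per kilobase in hypoxic sgCtl, sgXIST7 and sgXIST9.

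Of 8 genes of procollagen trimming, 7 were tested, and the counts called are set beside the share of all genes called in that direction. In hypoxia 2 fell in sgCtl (8.49% of all genes), 1 rose in sgXIST7 (15.1%) and 2 rose in sgXIST9 (14.7%). PCOLCE, the enhancer of the C-proteinase, fell in sgCtl (-1.37 ± 0.12, adjusted p = 1.8e-07), as did the N-proteinase ADAMTS14 (-1.14), which rose in sgXIST9 (1.39). TLL2, a relative of the C-proteinase BMP1, rose in sgXIST7 (1.70) and sgXIST9 (1.72).

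Against sgCtl, 3 of these genes were higher and 1 lower in normoxic sgXIST7 (4.67% and 3.09% of all genes), and 1 was higher and 2 lower in normoxic sgXIST9 (3.93% and 3.77%). In hypoxia, 3 were higher and 0 lower in sgXIST7 (7.83% and 6.19%), and 2 higher and 1 lower in sgXIST9 (6.14% and 3.39%). PCOLCE was higher in sgXIST7 by 1.12 ± 0.12 in normoxia (adjusted p = 2.4e-06) and 2.22 ± 0.13 in hypoxia (adjusted p = 1.2e-09), and in sgXIST9 by 0.63 ± 0.12 in normoxia (adjusted p = 8e-04, not called) and 1.93 ± 0.12 in hypoxia (adjusted p = 5.8e-09). PCOLCE2 was higher in both KD clones and both conditions, with log2 fold changes of 1.84 and 1.92 in sgXIST7 and 1.49 and 1.31 in sgXIST9. BMP1, which also releases active LOX from its precursor, was higher in sgXIST7 by 1.09 ± 0.14 in normoxia (adjusted p = 1.6e-05) and 1.03 ± 0.14 in hypoxia (adjusted p = 2e-05). ADAMTS14 was lower in both normoxic KD clones (-1.87 in sgXIST7 and -2.02 in sgXIST9), and TLL1, another relative of BMP1, was lower in sgXIST9 in both conditions (-4.53 and -3.79).

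Of 7 export genes, 1 fell in sgCtl in hypoxia (CREB3L1, a transcription factor of the secretory pathway), 0 were called in sgXIST7 and 1 fell in sgXIST9 (SAR1B, a GTPase of COPII vesicles, -1.07), against 8.49%, 12.2% and 8.58% of all genes called lower. In the KD comparisons CREB3L1 was called higher in both hypoxic KD clones, with 0 to 1 counts in the hypoxic sgCtl libraries, 8 to 15 in sgXIST7 and 5 to 9 in sgXIST9.

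Of 12 substrates, 11 were tested. In normoxia, 5 were higher and 1 lower in sgXIST7 than in sgCtl (4.67% and 3.09% of all genes), and 4 were higher and 3 lower in sgXIST9 (3.93% and 3.77%). In hypoxia, 5 were higher and 2 lower in sgXIST7 (7.83% and 6.19%), and 4 higher and 2 lower in sgXIST9 (6.14% and 3.39%). COL12A1 had 18.2 ± 2.11 CPM in normoxic sgCtl, 4950 ± 587 in sgXIST7 and 1650 ± 95.9 in sgXIST9 (SD, n = 3, log2 8.09 ± 0.31, adjusted p = 5.9e-12, and 6.50 ± 0.29, adjusted p = 3.8e-11). COL1A2 was higher in both (8.37 ± 0.59, adjusted p = 2.6e-08, and 7.39 ± 0.60, adjusted p = 9.6e-08), as was COL18A1, the source of endostatin (2.53 ± 0.24, adjusted p = 5.8e-07, and 2.14 ± 0.23, adjusted p = 2.7e-06). COL4A1, a chain of basement membrane collagen, was called lower in both, from 5 to 9 counts in the sgCtl libraries to 0 counts in the KD ones. COL1A1, the partner chain of COL1A2, was called higher in both KD clones in both conditions. Its log2 fold changes were 2.295 in sgXIST7 and 1.995 in sgXIST9 in normoxia, and 3.59 and 4.91 in hypoxia. In hypoxia COL4A1 was called lower in both (-7.05 in sgXIST7 and -4.17 in sgXIST9), as was COL4A2 (-5.11 and -2.87). COL4A2 had 9 to 45 counts in hypoxic sgCtl, 0 to 1 in sgXIST7 and 3 to 5 in sgXIST9.

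In hypoxia against normoxia, 3 substrates rose and 0 fell in sgCtl (11.3% and 8.49% of all genes), 0 rose and 1 fell in sgXIST7 (15.1% and 12.2%), and 3 rose and 1 fell in sgXIST9 (14.7% and 8.58%). COL4A1 (2.71), COL4A2 (3.46) and COL12A1 (1.18) rose in sgCtl, and COL5A1 (1.89), COL6A1 (1.00) and COL6A2 (1.62) in sgXIST9. COL18A1 fell in sgXIST7 (-1.51) and sgXIST9 (-1.10).

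Of 10 genes known to be induced by hypoxia, 8 rose in sgCtl, 9 in sgXIST7 and 9 in sgXIST9. The share of all genes called higher was 11.3%, 15.1% and 14.7%. Genes of this list had a median log2 fold change of 3.48, 3.53 and 3.12. EGLN3 was not called in any clone (1.26 ± 0.45 in sgCtl, adjusted p = 0.026, -0.56 in sgXIST7 and 0.59 in sgXIST9). Against sgCtl in hypoxia, 1 gene of this list was higher and 1 lower in sgXIST7 (7.83% and 6.19% of all genes). In sgXIST9, 1 was higher and 2 lower (6.14% and 3.39%). EGLN3 was called lower in both KD clones (-3.21 in sgXIST7 and -2.43 in sgXIST9) and CA9 higher in both (4.37 and 4.65). ADM was called lower in hypoxic sgXIST9 (-1.595). In normoxia ADM was called lower in both (-5.145 and -5.355) and NDRG1 in sgXIST9 (-1.105). The largest rises were those of ANKRD37 (5.92, 6.40 and 5.76), NDRG1 (5.17, 5.09 and 6.35) and the carbonic anhydrase CA9, which had 0 to 1 counts in normoxic and 6 to 33 in hypoxic sgCtl. SLC2A1, the glucose transporter, rose by 3.64 in sgCtl. ADM rose in sgXIST7 (4.54) and sgXIST9 (3.93) and was not called in sgCtl, where it had 287 ± 33.3 CPM in normoxia against 8.14 ± 2.02 and 7 ± 0.884 in the KD clones (SD, n = 3). Log2 fold changes of P4HA1, P4HA2 and PLOD2 lay between 3.15 and 4.36. Over the 18 libraries, the genes whose log2 CPM followed P4HA1 most closely were PGK1 (Pearson r = 0.994), FUT11 and TNIP1 (0.993 each), and those for P4HA2 were PLOD2 (0.994), GYS1 and BNIP3 (0.992 each). The closest to PLOD1 was NADSYN1 (0.990), to PLOD3 FBXW5 (0.967), to LOXL2 HOXD11 (0.977), to LOX LINC00638 (0.956), to LOXL1 DLGAP1-AS5 (0.974) and to P4HA3 REEP1 (0.928). The points are the same 6 groups of 3 libraries and share their oxygen level, so these correlations are descriptions.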

How the data were processed

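RNA-seq was analysed from 18 libraries, 3 in each of 6 groups of clone and oxygen. The authors extracted total RNA, prepared stranded libraries depleted of ribosomal RNA and used Trimmomatic, HISAT2 (genome hg38) and featureCounts for trimming, alignment and counting per gene (versions and strand setting not given in the sources used here). The deposited values are whole-number counts without normalization. The 2 broken lines without counts were left out. The 10 members and all lists were chosen with earlier results of these data known.

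Counts were tested with edgeR 4.0.16 (R 4.3.3, limma 3.58.1): TMM scaling, filterByExpr (minimum count 10, minimum total 15), robust glmQLFit and glmQLFTest, prior count 0.125, 1 fit of 6 groups. By rule, the genes to be named were all members, the called genes of each list and the 3 closest genes by Pearson correlation. Of each list, at most the 4 with the largest change per comparison were eligible. Not all eligible genes and values are printed. Called list genes are not given for sgXIST7 against sgXIST9 nor, apart from COLGALT2, for the interactions. Marker genes, the family shares of LOXL3 and P4HB, uncalled values of list genes and some values of COL1A1 and COL4A2 were described outside this rule. The scripts were tested on simulated data. Alternatives were DESeq2 1.42.0, other scalings and filters, fits of the compared groups alone, a block for the replicate number, other thresholds and each library left out.

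Same-numbered replicates deviated together, with correlations over 0.1 for all 3 numbers, in sgXIST7 against sgCtl in normoxia (0.148, 0.379 and 0.195) and sgXIST9 against sgCtl in hypoxia (0.197, 0.52 and 0.566). The pairing comes from this check and not from the labels. Exact Poisson and binomial limits (95%) cover counting error only. Every replicate pair differed by more than sampling noise.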

Additional observations from a re-analysis of the deposited data

How the results depend on the processing

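Every gene called kept its direction under every alternative run. By their scaling factors, the other scalings shift the log2 fold changes between 2 groups by a common amount of at most 0.09. Counts of genes called changed by over 1.5 times, or from 0, as follows. Fitting only the groups compared left 1 for sgXIST7 against sgXIST9 in hypoxia, an adjusted p under 0.05 gave 1 for sgXIST9 against sgCtl in hypoxia (LOX), and no minimum fold gave 5 for sgXIST7 and 1 for sgXIST9 against sgCtl in normoxia. With single libraries left out, the counts ranged from 0 to 1 for sgXIST9 and 3 to 7 for sgXIST7 against sgCtl in hypoxia, and from 1 to 4 for sgXIST7 against sgXIST9 in hypoxia. Among all genes, the calls in these comparisons ranged from 1149 to 2000, from 1561 to 3015 and from 434 to 973. The cause was not tested. Smaller changes were 6 for hypoxia in sgCtl (LOX, LOXL1 and P4HA3 not tested there) and 3 for sgXIST7 against sgCtl in hypoxia with only the groups compared, 9 and 5 for these with an adjusted p under 0.05, and, without a minimum fold, 6 for the latter and 4 for sgXIST7 against sgXIST9 in hypoxia. With the replicate block (paired fit), 3 and 0 genes were called in the comparisons where the numbers pair the libraries, as without it. Elsewhere the block added P4HA3 for sgXIST7 against sgCtl in hypoxia (-1.91, adjusted p = 0.0074, 5 genes in all) and changed no other call.

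Differences in response near 0 changed sign. P4HA1 in sgXIST7 was 0.005 without a filter, 0.048 without the 3 hypoxia libraries numbered 3 and from -0.157 to 0.122 with single libraries left out. P4HA2 in sgXIST7 was 0.021 and from -0.252 to 0.192 in the last 2 settings. PLOD2 in sgXIST9 was 0.023 with upper-quartile scaling, 0.075 without those 3 libraries and from -0.197 to 0.23 with single libraries left out. DESeq2 gave no adjusted p for LOXL4, nor for P4HA3 in the interactions. Depth limits LOX, LOXL1, P4HA3 and LOXL4, whose lowest groups had under 10 counts in all.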
